A study of Mus musculus with 6 samples.

Results

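Immediate-early genes are switched on within minutes of a stimulus, without new protein synthesis, and most of them encode transcription factors. In the retina they respond to light, to synaptic activity and to injury, and their transcripts are short-lived, so a measured level reflects the recent state of the tissue. The 10 genes described here, Fos, Fosb, Jun, Junb, Atf3, Egr1, Nr4a1, Ier2, Arc and Npas4, were taken by symbol from the 24062 genes of the count table, and all 10 were found. They were compared between 3 Rb1/p107/Hells TKO (triple knockout) retinae and 3 Rb1/p107 DKO (double knockout) retinae at postnatal day 21 (P21).

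In both genotypes, mice (strain C57BL/6 in the labels, C57BL/6N in the study's methods) carried Chx10-Cre, a Cre transgene active in retinal progenitors in a mosaic pattern, together with floxed Rb1 alleles and null p107 alleles. The TKO mice carried a floxed Hells gene as well, whose exon 12 the Cre removes. Hells encodes a chromatin remodeler. No Cre-negative retina was analysed here, so each value compares a mutant retina with another mutant retina, and a retina also holds cells without recombination. The comparison asks what loss of Hells changes in retinae where Rb1 and p107 are already targeted. The sources used here do not give the hour or lighting of collection, nor whether retinae of a genotype came from separate animals, so p-values measure the spread between these samples only. In whole retina, fewer cells of a type and less RNA per cell cannot be told apart.

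The libraries held between 10343907 and 14203098 counts. Hells was counted 53, 65 and 68 times in the TKO libraries, against 720, 597 and 457 in the DKO libraries, so its level followed the labels. Rb1, floxed in both genotypes, was detected in all libraries, with 682 to 814 normalized counts in TKO and 572 to 617 in DKO retinae (log2 fold change 0.34, edgeR adjusted p = 0.0388, lost in 5 of the 6 fits without 1 retina). Among all genes tested, the fits without 1 retina called from 214 to 1617 higher, against 1243 with all 6 libraries. Counts per gene do not show which exons were read. All rod markers looked at were detected in each library. Within the DKO group, replicate 3 stood apart from replicates 1 and 2 (chi-square per degree of freedom of 22.4 and 18.5, against 8.61 between replicates 1 and 2). Within the TKO group, replicates 1 and 3 differed most (25.3). Values below are normalized counts, which are counts divided by the library size after TMM scaling, and fold changes are log2 of TKO over DKO.

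Most of the 10 genes showed no difference between the genotypes that passed the test. Jun fell in TKO retinae, none of the 10 rose, and 9 did not pass an adjusted p of 0.05 in edgeR's quasi-likelihood test. For comparison, 9.2% of the 16904 genes tested were lower and 7.35% were higher at that threshold. At an unadjusted p of 0.05, 1 of the 10 genes passed, which was Jun, against 33.1% of all genes. DESeq2 also called 1 of the 10 lower and 0 higher, against 10.5% and 8.81% of all genes. A stricter call asked for the same adjusted p, a log2 change of 1 or more in size and a mean of 10 or more normalized counts. None of the 10 met these 3 criteria, against 6.35% of all genes. The 10 fold changes ran from -0.84 (Arc) to 0.41 (Nr4a1), 6 below 0 and 4 above, with a median of -0.032, against a median of -0.011 over all genes tested. All TKO values lay on one side of all DKO values for 1 of the 10, against 38.6% of all genes.

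**Figure D1:**
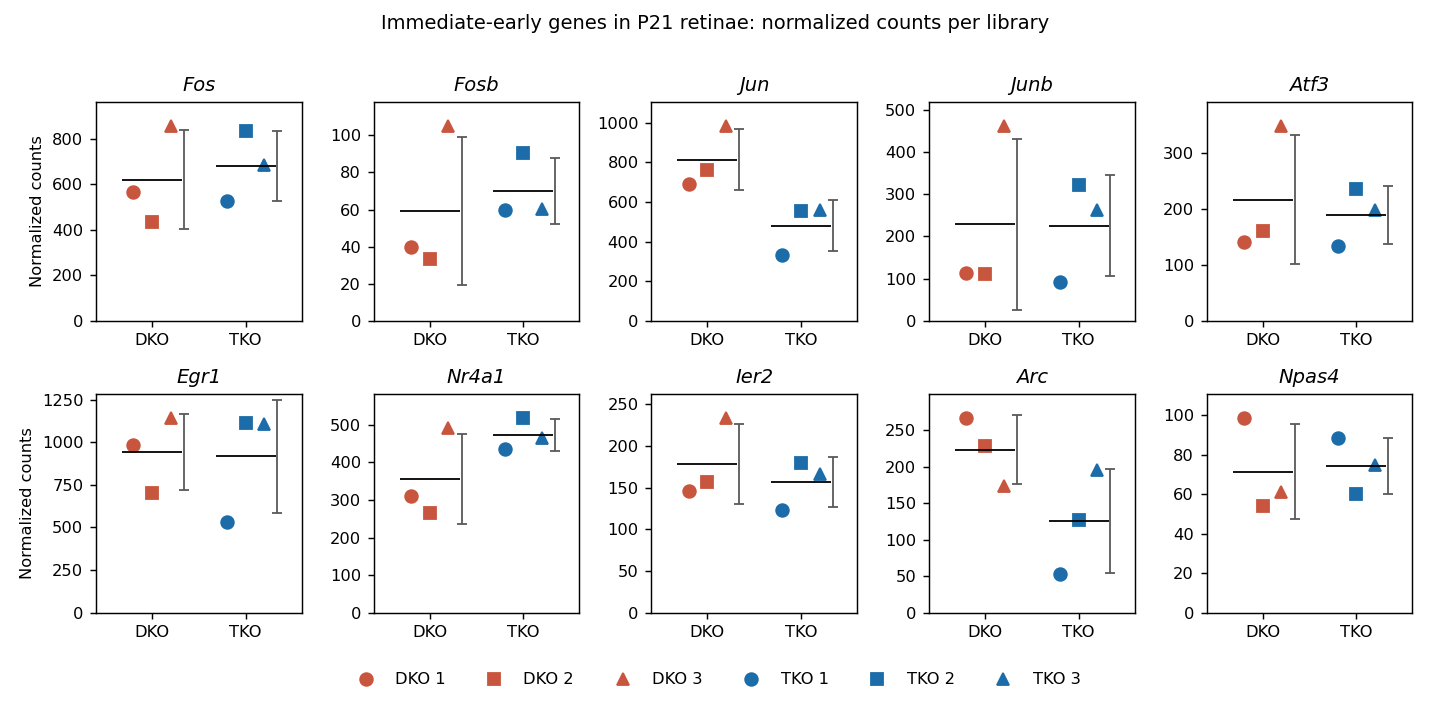
Normalized counts (vertical axes, from 0) of the 10 immediate-early genes in DKO (red) and TKO (blue) retinae. Each point is 1 library with its shape giving the replicate, the line is the mean and the bar the SD (n = 3). The genotypes separate for Jun only, and DKO replicate 3 is the highest DKO point in 8 of 10 genes.

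**Figure D2:**
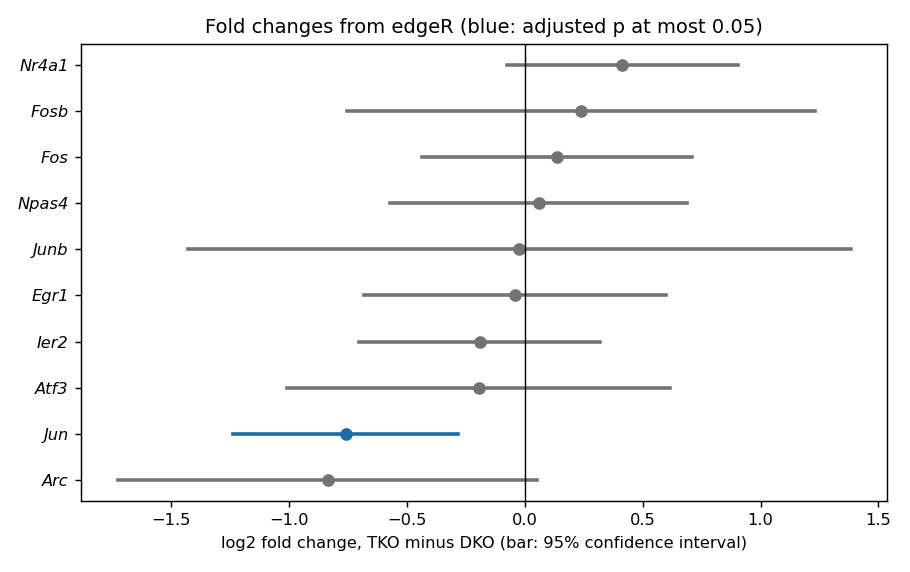
Log2 fold change of TKO over DKO for each gene from edgeR, with its 95% confidence interval. Of the 10 intervals, that of Jun alone lies on one side of 0, from -1.24 to -0.28.

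Fos, Fosb, Jun and Junb encode subunits of AP-1, a leucine zipper dimer in which a FOS protein pairs with a JUN protein, or JUN proteins pair with each other. Jun is on chromosome 4 of GRCm38 from 95049034 to 95052222, minus strand, in a single exon. In order of replicate, the TKO retinae held 333, 553 and 558 normalized counts, and the DKO retinae 694, 764 and 987. Each TKO retina was below each DKO retina. The means were 481 ± 129 and 815 ± 153 (SD, n = 3 each), and log2(TKO/DKO) was -0.76 ± 0.209 (standard error, edgeR adjusted p = 0.0416, lower in 3 of 3 TKO retinae than in any DKO retina). The call sat close to the threshold. It was lost in 5 of the 6 fits that left out 1 retina, with adjusted p-values from 0.0689 to 0.101 in those 5 edgeR fits, and it was kept without TKO replicate 3 (0.0320). Among all genes tested, 1556 were lower with all 6 libraries. Without TKO replicate 1, TKO replicate 2, DKO replicate 1 or DKO replicate 2, 766, 404, 499 and 433 were lower. Without DKO replicate 3 or TKO replicate 3, 1715 and 1973 were lower. The call of Jun was also lost with robust dispersion estimates (0.0610 from edgeR), while DESeq2 gave 0.00388. The fold change stayed below 0 throughout, between -0.91 and -0.55. The annotation places an antisense gene, Junos, over Jun, and without a stated strand setting the reads of both cannot be told apart.

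Fos is on chromosome 12 from 85473890 to 85477273, plus strand, with 4 exons in its first annotated transcript. Its normalized counts were 524, 831 and 686 in TKO and 566, 434 and 857 in DKO retinae. The highest and lowest of the 6 values were both in the DKO group. The log2 fold change was 0.14 (95% confidence interval -0.44 to 0.71, edgeR adjusted p = 0.742). Its close relative Fosb, on chromosome 7 from 19302696 to 19310051, minus strand, was far less abundant. Its TKO retinae had 59.6, 90.5 and 60.1 normalized counts and its DKO retinae 39.5, 33.3 and 105, so DKO replicate 3 was the highest and replicate 2 the lowest DKO retina, as for Fos. Its fold change was 0.24 (-0.75 to 1.23, edgeR adjusted p = 0.740).

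Junb, on chromosome 8 from 84974484 to 84978718, minus strand, encodes a JUN protein with weaker activating capacity than that of Jun. It was the gene with the widest spread in the DKO group. It had 91.7, 322 and 263 normalized counts in TKO and 114, 110 and 463 in DKO retinae. Its fold change was -0.023 (-1.43 to 1.38, edgeR adjusted p = 0.983). The largest DKO value was 4.20 times the smallest, and the largest TKO value 3.51 times the smallest. Jun and Junb thus had different patterns across the retinae. Jun separated the genotypes with at most a 1.68-fold range inside a genotype, and Junb ranged several-fold inside each genotype with near-equal means. Junb overlaps Prdx2 on the opposite strand, and the sources used here do not state the strand setting of the counting. Prdx2 had between 3590 and 4397 normalized counts in the 6 retinae and was not highest in DKO replicate 3.

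The sequences just before the starts of the AP-1 genes are shown because, of these relatives, Jun passed the test and Fos, Fosb and Junb did not. Whether the sequences bear on this was not tested. They are the 150 bases before the RefSeq start on the gene's strand (GRCm38.p6), 5′ to 3′. Capitals mark matches, on either strand, to the CRE core TGACG, the CRE-type site TGACNTCA, the AP-1 site TGANTCA, the TATA box TATAAA, the CArG box bound by SRF, or the MEF2 site.
Fos, chr12:85473740-85473889, plus strand: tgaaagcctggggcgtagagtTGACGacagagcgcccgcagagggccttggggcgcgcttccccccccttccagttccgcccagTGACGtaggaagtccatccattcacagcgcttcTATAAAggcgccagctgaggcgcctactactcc
Fosb, chr7:19310046-19310195, minus strand: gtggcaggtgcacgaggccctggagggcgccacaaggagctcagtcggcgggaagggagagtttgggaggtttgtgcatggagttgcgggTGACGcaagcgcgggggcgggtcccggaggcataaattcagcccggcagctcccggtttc
Jun, chr4:95052223-95052372, minus strand: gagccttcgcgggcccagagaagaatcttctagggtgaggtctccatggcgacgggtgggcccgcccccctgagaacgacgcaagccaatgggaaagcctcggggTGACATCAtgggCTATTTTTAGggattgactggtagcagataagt
Junb, chr8:84978749-84978898, minus strand: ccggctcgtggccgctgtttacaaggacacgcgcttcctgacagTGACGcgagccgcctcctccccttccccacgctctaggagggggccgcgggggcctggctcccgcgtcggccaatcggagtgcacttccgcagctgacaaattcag

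In the 250 bases searched, Jun held no CRE core but a CRE-type site from 45 to 38 bases and a MEF2 site from 33 to 24 bases before its start. Fos held a CRE core at 129 to 125 and another at 66 to 62 bases, and a TATA box at 33 to 28 bases. Fosb held a CRE core at 60 to 56 bases and Junb at 106 to 102 bases. Sequences were found for 7 of the 10 genes. The CRE core, which matches CREB-family and ATF proteins, occurred in 6 of those 7 (Fos, Fosb, Junb, Atf3, Nr4a1 and Npas4) and in 17.8% of the 32851 promoter windows of the same length. The MEF2 site occurred in Jun and Atf3 and in 2.92% of windows, the EGR site GCGNGGGCG in Fosb and Nr4a1 and in 4.7%, and the CRE-type site in 1 of the 7 and in 7.49% of windows. No AP-1 site or CArG box lay in the 7 windows, against 6.75% and 1.47% of all windows. Sites more than 250 bases before the start were not searched for, and Egr1, Arc and Ier2 had no sequence. The genes can therefore hold such sites elsewhere. The CRE core and the CRE-type site share letters, so a window can match both. A match describes the letters only.

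Atf3, on chromosome 1 from 191170296 to 191218039, minus strand, encodes a leucine zipper factor of the ATF/CREB family that cells induce under stress and that can pair with JUN proteins. It had 134, 237 and 198 normalized counts in TKO and 141, 160 and 350 in DKO retinae. DKO replicate 3 was the highest of the 6, and the ranges overlapped. The log2 fold change was -0.20 (-1.01 to 0.62, edgeR adjusted p = 0.739).

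Egr1, on chromosome 18 from 34859823 to 34864984, plus strand, encodes a zinc finger factor widely used as a marker of neuronal activity. It had the largest counts of the 10 genes, with 532, 1110 and 1108 normalized counts in TKO and 984, 701 and 1144 in DKO retinae. TKO replicate 1 was lowest, and the other TKO values lay within the DKO range. The log2 fold change was -0.041 (-0.68 to 0.60, edgeR adjusted p = 0.932). Nr4a1, on chromosome 15 from 101254269 to 101274795, plus strand, encodes the orphan nuclear receptor NUR77. It had 436, 519 and 464 normalized counts in TKO and 310, 264 and 491 in DKO retinae. Its TKO values were the closest together of the 10 genes (1.19-fold range), and DKO replicates 1 and 2 lay below each of them. The log2 fold change was 0.41 (-0.077 to 0.90, edgeR adjusted p = 0.216), and without DKO replicate 3 it was 0.72 and passed (edgeR adjusted p = 0.00999). In that fit 1483 of 16672 genes tested were higher, against 1243 of 16904 with all libraries.

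Ier2, on chromosome 8 from 84661331 to 84662852, minus strand, is a single-exon gene of the early growth response to serum. It had 123, 180 and 167 normalized counts in TKO and 146, 157 and 234 in DKO retinae. Its fold change was -0.19 (-0.71 to 0.32, edgeR adjusted p = 0.587). The intervals of Ier2, Fos, Egr1, Nr4a1 and Npas4 lay within 1 log2 unit of 0, while those of Fosb, Jun, Junb, Atf3 and Arc reached further.

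Arc and Npas4 are the genes of the list that neurons induce most selectively. Arc, whose protein acts at synapses in receptor trafficking, is on chromosome 15 from 74669083 to 74672570, minus strand. It had 52.8, 127 and 195 normalized counts in TKO and 267, 229 and 174 in DKO retinae. TKO replicates 1 and 2 lay below all DKO retinae, and TKO replicate 3 above DKO replicate 3. The log2 fold change was -0.84, the lowest of the 10 (-1.73 to 0.052, edgeR adjusted p = 0.172). Without TKO replicate 3 it was -1.30 and passed (edgeR adjusted p = 0.0364), and without TKO replicate 1 it was -0.47. The fit without TKO replicate 3 called 1973 of 16773 genes lower, against 1556 of 16904 with all libraries. Npas4, on chromosome 19 from 4984355 to 4990316, minus strand, encodes a bHLH-PAS factor that neurons induce on calcium entry. It had 88.3, 60.0 and 74.9 normalized counts in TKO and 98.8, 54.3 and 61.3 in DKO retinae. Its fold change was 0.059 (-0.57 to 0.69, edgeR adjusted p = 0.903).

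Expressed per kilobase of annotated exon, so that genes can be compared in level, Fos was highest with a mean of 276 normalized counts per kilobase over the 6 retinae. Egr1 (207), Jun (203), Nr4a1 (118), Ier2 (110), Junb (98.8), Atf3 (94.4) and Arc (56.9) followed, and Npas4 (17.6) and Fosb (10.4) were lowest. For each pair of neighbours in this order the ranges over the 6 retinae overlapped. Fos was nevertheless above Egr1 in 6 of 6 retinae. In contrast, Nr4a1 was above Ier2, Ier2 above Junb and Junb above Atf3 in 3 of 6 retinae each, so the middle of the order is not resolved. Within a genotype the order changed. Jun was at 256 ± 48.0 normalized counts per kilobase in DKO retinae, near Fos at 263 ± 92.1, and at 151 ± 40.4 in TKO retinae, against 289 ± 65.4 for Fos (SD, n = 3 each). Lengths are of all annotated exons of a gene together, which lowers the level of genes with unused isoforms.

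The same libraries were high or low in many of the 10 genes. DKO replicate 3 was the highest DKO retina in 8 of the 10 genes (36.0% of all genes tested) and the highest of all 6 retinae in 7 (12.9% of all genes). TKO replicate 1 was the lowest TKO retina in 9 of the 10 genes (37.5% of all genes) and the lowest of all 6 in 6 (27.3%). DKO replicate 2 was the lowest of all in the other 4. TKO replicate 2 was the highest TKO retina in 7 of the 10 genes (28.8% of all genes). The exceptions among DKO maxima were Arc and Npas4, both highest in DKO replicate 1. In DKO replicate 3 the level was at least 1.5 times the mean of the other DKO retinae for 6 genes: Fos (1.71), Fosb (2.89), Junb (4.13), Nr4a1 (1.71), Ier2 (1.55) and Atf3 (2.32). This applied to 5.28% of the 14976 genes with a mean normalized count of at least 10, whose median ratio was 0.997. In TKO replicate 1, 8 of the 10 genes were at most 0.8 times the mean of the other TKO retinae, as were 17.5% of all genes. The lowest ratios were 0.314 for Junb, 0.327 for Arc and 0.480 for Egr1. The libraries and ratio limits were chosen after the values had been seen.

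**Figure D3:**
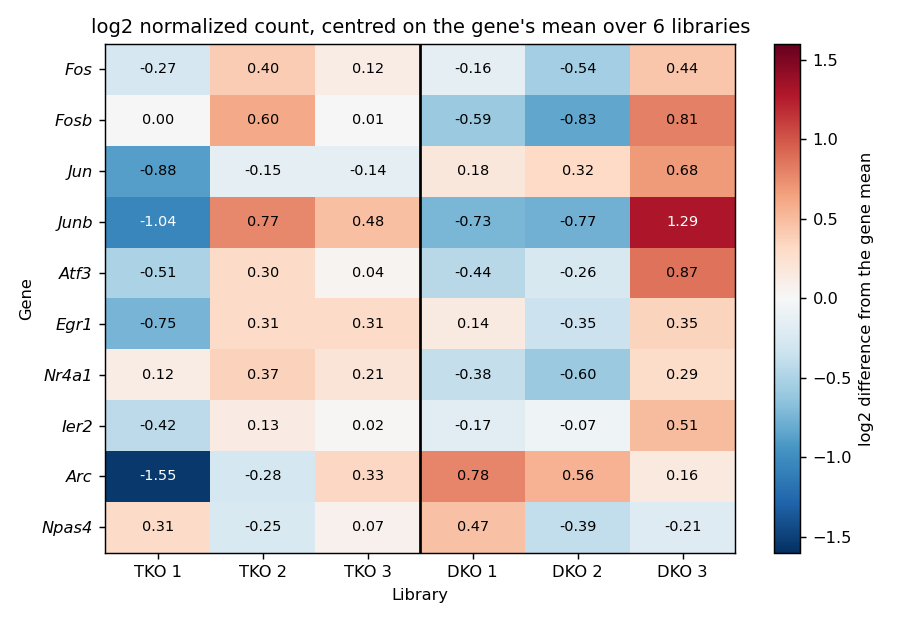
Log2 normalized count (0.5 added) of each gene in each of the 6 libraries, centred on the gene's mean, from blue (low) to red (high). In DKO replicate 3, Junb, Atf3 and Fosb are at 1.29, 0.87 and 0.81, and in TKO replicate 1, Arc and Junb are at -1.55 and -1.04.

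Some markers of gliosis were also highest in DKO replicate 3. Of 6 astrocyte and gliosis markers, 3 were at least 1.5 times the mean of the other DKO retinae. This applied to 5.28% of genes with a mean normalized count of at least 10. The 3 markers high in DKO replicate 3 were Gfap, the intermediate filament of reactive glia (2.42 times), Lcn2 (4.42 times) and Serpina3n (6.62 times). Vim was also highest there, while S100b was lowest in DKO replicate 3 of the DKO retinae (250, 258 and 198 normalized counts) and Pax2 was highest in DKO replicate 2 (11.3, 19.3 and 16.4). The summed level of the 6 markers was 22855 normalized counts in DKO replicate 3, 9450 and 11104 in the other DKO retinae, and 4393 to 8614 in TKO retinae, with none at 0 in any library. The 7 rod markers summed to 216565 in DKO replicate 3 and to 113219 and 117312 in the other DKO retinae. Pigment epithelium markers summed to 833 in DKO replicate 3, and to 148 and 632 in the other DKO retinae. In TKO replicates 1, 2 and 3 they summed to 1011, 1878 and 630. Lens markers summed to 263 in TKO replicate 2 and to between 55.0 and 87.1 in the other retinae of both genotypes. In TKO replicate 1 the gliosis sum was the lowest of all retinae and the rod sum the highest, at 676851. The part of these cell types in the immediate-early values was not tested.

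The sums of some marker lists of other cells did not overlap between the genotypes, nor did the values of Jun. Among single genes tested, 38.6% did not overlap. All 7 markers of dividing cells fell, with sums from 436 to 1842 normalized counts in TKO and from 4538 to 9777 in DKO retinae. Of 8 microglia markers 5 fell, with sums from 1672 to 2922 in TKO and from 3330 to 5048 in DKO retinae. All 7 rod markers rose. Among all genes tested, 7.35% rose and 9.2% fell at an adjusted p of 0.05. Of the 6 astrocyte and gliosis markers, 1 fell, Lcn2 (log2 fold change -4.86, edgeR adjusted p = 0.00733), and their sums given above did not overlap between genotypes. Of the other lists, 2 of 6 cone, 3 of 6 Muller glia, 1 of 7 bipolar, 1 of 8 ganglion, 1 of 8 vascular and 1 of 6 pigment epithelium markers rose, and no horizontal cell or lens marker passed. The Muller glia sums did not overlap either, from 59900.7 to 64786.5 in TKO and from 41760.4 to 43099 in DKO retinae. The lens marker Lim2 was counted 0, 47 and 2 times in the TKO libraries and was at 0 in the 3 DKO libraries. None of the dividing-cell, microglia and rod markers was at 0 in a library. The 8 amacrine markers did not pass the test, with sums from 18018 to 21644 in TKO and from 19680 to 22094 in DKO retinae. Their part in the fall of Jun was not tested.

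**Figure D4:**
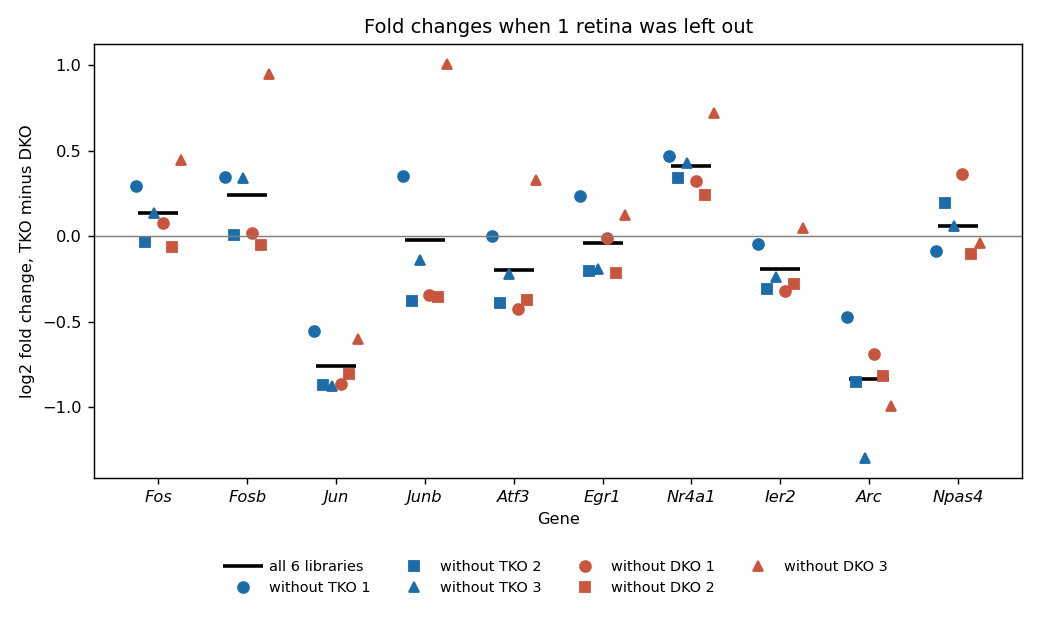
Log2 fold change of TKO over DKO with all 6 libraries (black line) and with 1 library left out (points, shape and colour giving that library). Without DKO replicate 3, Junb moves from -0.02 to 1.01 and Fosb from 0.24 to 0.95, while Jun stays between -0.88 and -0.55.

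With 1 retina left out, the sign of the fold change turned at least once for Fos, Fosb, Junb, Atf3, Egr1, Ier2 and Npas4. Without DKO replicate 3, 1 of the 10 genes passed as higher (Nr4a1) and 0 as lower, against 1483 and 1715 of 16672 genes tested. In that fit Junb, Fosb and Fos were at 1.01, 0.95 and 0.45 on the log2 scale (edgeR adjusted p = 0.158, 0.0609 and 0.159), and Junb, Egr1, Ier2 and Atf3 turned from below 0 to above 0 and Npas4 to below 0. Without TKO replicate 1, Junb, Egr1 and Atf3 turned to above 0 and Npas4 to below 0. Jun, Arc and Nr4a1 kept their direction in all 6 fits.

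The profile of Fos over the 6 retinae was compared with that of each other gene by the Euclidean distance between centred log2 values. The nearest genes were Gm16793, Tmem120b, Ccdc85c, Pdgfb and Ssbp4, at distances from 0.260 to 0.311. Of the other immediate-early genes, Nr4a1 was nearest, with rank 65 of 14975 genes (distance 0.481), then Ier2 (rank 196), Egr1 (379), Atf3 (410) and Fosb (1065). Jun, Npas4, Junb and Arc had ranks from 11400 to 13914, at distances from 1.26 to 2.08. The values were not scaled, so a gene that moves with Fos but by larger amounts is also distant. Junb lay on the same side of its mean as Fos in each retina. In DKO replicate 3 the centred values were 1.29 for Junb and 0.44 for Fos. Between members, the largest distance was 2.74, between Fosb and Arc.

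Related genes were examined in 6 lists. Of 12 other AP-1 and ATF genes tested, 3 rose and 3 fell, against 7.35% and 9.2% of all genes tested. The median log2 fold change was -0.10, and Batf fell under the count minimum of 10. Atf4, the effector of the integrated stress response, had 4003, 3877 and 3289 normalized counts in TKO and 2447, 2671 and 3178 in DKO retinae (log2 fold change 0.43, edgeR adjusted p = 0.0456). Atf6, a sensor of endoplasmic reticulum stress, and Atf7 rose by 0.35 and 0.61 on the log2 scale (edgeR adjusted p = 0.0362 and 0.0190). Atf5 fell by 0.70 (edgeR adjusted p = 0.0362). Batf3, a factor of dendritic cell development, was counted 1, 2 and 6 times in the TKO libraries and 25, 34 and 24 times in the DKO ones (edgeR adjusted p = 0.0136). Batf2 was counted 1, 0 and 1 times in the TKO libraries and 11, 7 and 8 times in the DKO ones (edgeR adjusted p = 0.0260). Both Batf calls were lost without TKO replicate 2, DKO replicate 1 or DKO replicate 2, and that of Batf2 also without TKO replicate 1 and in DESeq2. The rise of Atf4, Atf6 and Atf7 and the fall of Atf5 were each lost without any 1 of TKO replicates 1 and 2 and DKO replicates 1 and 2. Those fits called from 214 to 541 of all genes higher and from 404 to 766 lower. With all libraries, 1243 were higher and 1556 lower. With libraries scaled by total counts, which put the median gene at -0.17, 1 of the 3 higher genes passed.

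Of 7 other EGR and NR4A genes, 1 fell and none rose at that threshold, against 9.2% and 7.35% of all genes tested. At an unadjusted p of 0.05, 2 passed, a share near the 33.1% of all genes. The median was 0.021. DESeq2 called 2 lower and 0 higher. Nab2, a corepressor that binds EGR proteins, had 208, 313 and 383 normalized counts in TKO and 462, 469 and 521 in DKO retinae (log2 fold change -0.69, edgeR adjusted p = 0.0477). This call was lost in 5 of the 6 fits that left out 1 retina. Among all genes tested, those 6 fits called from 404 to 1973 lower, against 1556 with all libraries. Nab1 had a fold change of 0.071 (edgeR adjusted p = 0.653). Egr2, named here after its values were seen, was counted 6, 6 and 26 times in the TKO libraries and 51, 43 and 134 times in the DKO ones. Its values did not overlap, and the fold change was -2.18 (edgeR adjusted p = 0.0567). DKO replicate 3 was again the highest.

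Of 24 other early response genes, 5 fell and 2 rose, against 9.2% and 7.35% of all genes tested. The median was -0.25. Myc, the growth-promoting transcription factor, had 26.4, 30.5 and 55.2 normalized counts in TKO and 89.4, 77.9 and 116 in DKO retinae (log2 fold change -1.34, edgeR adjusted p = 0.0230). Cyr61, which encodes a secreted matrix protein, fell by 1.14 (edgeR adjusted p = 0.0388). Ier5 fell by 0.94, from 674, 650 and 547 normalized counts in DKO to 282, 290 and 406 in TKO retinae (edgeR adjusted p = 0.00940), and Klf10 fell by 0.76 (edgeR adjusted p = 0.0458). The genes that rose were Per1, a clock gene that light also induces, with 1710, 1821 and 1636 normalized counts in TKO and 995, 991 and 1211 in DKO retinae (log2 fold change 0.69, edgeR adjusted p = 0.00706), and Sgk1, a kinase (0.69, edgeR adjusted p = 0.0219). The rise of Sgk1 was lost without TKO replicate 2, DKO replicate 1 or DKO replicate 2. Ier5 and Per1 passed in the 6 fits that left out 1 retina. Only 1 of the 5 lower genes still passed without TKO replicate 1, TKO replicate 2, DKO replicate 1 or DKO replicate 2. Among all genes tested, those fits called 766, 404, 499 and 433 lower, in that order, and 541, 308, 312 and 214 higher. With all libraries, 1556 were lower and 1243 higher. By the same ratios within a genotype, the list had 7 of 24 genes at 1.5 times or more in DKO replicate 3. In TKO replicate 1, 13 of 24 were at 0.8 times or less. The shares of genes with a mean normalized count of at least 10 were 5.28% and 17.5%. Gadd45b and Maff, named after their values were seen, had the ratios 3.45 and 3.00 in DKO replicate 3.

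No MAPK phosphatase (these switch off the kinases upstream of Fos and Egr1) and no activity-regulated neuronal gene passed the edgeR test at 0.05. The medians were 0.19 and 0.032. In that test 7.35% of all genes were higher and 9.2% lower, and DESeq2 called 8.81% and 10.5%. Of 10 phosphatases 6 passed at an unadjusted p of 0.05, against 33.1% of all genes, and DESeq2 called 2 higher and 1 lower. Dusp8 and Dusp16, which had large counts, had log2 fold changes of 0.38 and -0.28 (edgeR adjusted p = 0.0752 and 0.105). Without TKO replicate 3, 3 phosphatases passed as higher and 1 as lower, against 1617 and 1973 of 16773 genes tested. Of 13 activity-regulated genes 1 passed at an unadjusted p of 0.05 (33.1% of all genes), and DESeq2 called 1 higher. Without DKO replicate 3, 2 were higher, against 1483 of 16672 genes tested. Scg2, a secretory granule protein, and Plk2, a kinase of synaptic scaling, had fold changes of 0.36 and -0.24 (edgeR adjusted p = 0.0819 and 0.183). In DKO replicate 3, 0 of 9 phosphatases and 3 of 13 activity-regulated genes (Bdnf, Vgf and Ptgs2) were at least 1.5 times the mean of the other DKO retinae. This applied to 5.28% of genes with a mean normalized count of at least 10. The difference between lists was not tested.

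Of 26 upstream factors and kinases, 5 rose and 1 fell, against 7.35% and 9.2% of all genes tested. The median was 0.043. Mef2c, a MADS box factor of activity-dependent transcription that photoreceptors also express, had 780, 658 and 401 normalized counts in TKO and 281, 197 and 186 in DKO retinae (log2 fold change 1.47, edgeR adjusted p = 0.0101). Mef2d, needed for photoreceptor gene expression, rose by 0.83 (edgeR adjusted p = 0.0239). Rps6ka2 and Ep300, a ribosomal S6 kinase and a histone acetyltransferase, rose by 0.45 and 0.44 (edgeR adjusted p = 0.0273 and 0.0439). Mapk3, which encodes ERK1, fell by 0.27 (edgeR adjusted p = 0.0421). The fall of Mapk3 was lost in each fit that left out 1 retina, and without DKO replicate 2 none of the 5 higher genes passed. Without TKO replicate 1, TKO replicate 2 or DKO replicate 1, 1 of them passed, and 2 did with libraries scaled by total counts. Among all genes tested, 1243 were higher with all libraries and 214 without DKO replicate 2. Without TKO replicate 1, TKO replicate 2 or DKO replicate 1, 541, 308 and 312 were higher, and 778 with total counts. Lower genes numbered 1556 with all libraries and from 404 to 1973 in the fits that left out 1 retina. The rod markers, which rose in all 7 cases, moved with Mef2c and Mef2d across genotypes. Within the DKO group the rod sum was highest in replicate 3 (216565), where Mef2c was lowest (186) and Mef2d highest (2236). Within the TKO group the rod sum and Mef2c were highest in replicate 1 and Mef2d in replicate 2. The part of rods in these changes was not tested.

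**Figure D5:**
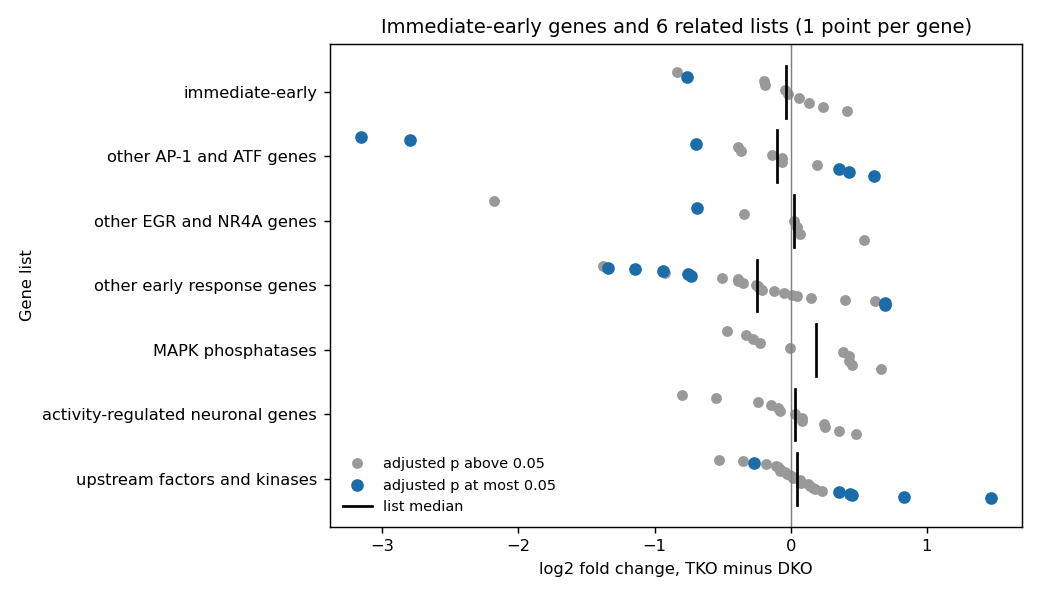
Log2 fold change of TKO over DKO for each tested gene of the immediate-early list and 6 related lists, with blue points for genes that passed the edgeR test at 0.05 and a black line at the list's median. The immediate-early genes lie between -0.84 and 0.41 with 1 blue point, and the list medians lie between -0.25 and 0.19.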

How the data were processed

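RNA-seq counts of 3 TKO and 3 DKO P21 retinae were analysed, with genotype and replicate number from the sample titles. The authors deposited raw counts per gene symbol, unnormalized, from paired-end reads of stranded mRNA libraries. The sources differ on how the counts were made. The study's methods name STAR and HTSeq on GRCm38, with up to 3 alignments per read, and the submitters' processing notes name TopHat2 and featureCounts. Neither gives the strand setting.

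Genes with a sum under 10 were removed, which left 16904. The genotypes were compared in R 4.3.3 by the quasi-likelihood F test of edgeR 4.0.16 with TMM scaling, no covariate and Benjamini-Hochberg adjustment over all genes tested. The script was first tested on simulated data. Standard errors came from the log2 change and its F value, with intervals at 95%. DESeq2 1.42.0 was an alternative, as were other scalings, filters and thresholds, robust dispersion, the replicate number as a block and each retina left out.

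The genes and lists were chosen with earlier results of these data known. Named genes were the 10, the checks, the 5 nearest to Fos, and in each related list up to 4 passing genes of each direction by fold change plus the 2 with the largest mean count. A gene that this rule names is not reported here. Positions and lengths come from GENCODE M21 (GRCm38) and promoters from RefSeq. Same-numbered retinae did not deviate together (correlations over genes of 0.0734, -0.04 and -0.162). The numbers were therefore not used to pair retinae.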

Additional observations from a re-analysis of the deposited data

How the results depend on the processing

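Of 140 recomputed fold changes of the 10 genes, 115 kept direction and side of the threshold, 7 lost the call, 2 gained it and 16 turned in sign. The cause was not tested. The fits without 1 retina also had fewer samples, and the part of this was not tested either. No turned value passed the test. With total counts only, Fos was at -0.012, Npas4 at -0.10 and Nab1 at -0.087 on the log2 scale. Over the fits without 1 retina, log2 fold changes ran from -0.065 to 0.45 for Fos, -0.049 to 0.95 for Fosb, -0.38 to 1.01 for Junb, -0.22 to 0.23 for Egr1, -0.11 to 0.36 for Npas4, -0.32 to 0.049 for Ier2 and -0.43 to 0.33 for Atf3. The counts of called genes over these fits, higher and then lower, ran from 0 to 1 and 0 to 2 for the 10 genes, 0 to 3 and 0 to 3 for other AP-1 and ATF genes, 1 to 3 and 1 to 5 for other early response genes, 0 to 3 and 0 to 1 for MAPK phosphatases and 0 to 5 and 0 throughout for upstream factors and kinases. Lower EGR and NR4A genes ran from 0 to 2, higher activity-regulated genes from 0 to 2, and immediate-early genes meeting the 3 criteria from 0 to 1. Over all genes, with 16666 to 16773 tested, the same fits called from 214 to 1617 higher and from 404 to 1973 lower. With all 6 libraries, 1243 and 1556 of 16904 were called.

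The replicate block, which takes the replicate number as a term, left 24 higher and 82 lower genes of all genes tested, against 1243 and 1556 without it. The numbers do not pair the retinae, so a call lost this way is not a weaker effect. With the block 0 immediate-early genes passed, Junb was at 0.12, the AP-1 and ATF, EGR and NR4A and early response lists had 0 calls, and 1 upstream gene was higher and 0 lower. Robust dispersion and an adjusted p of 0.01 left 0 lower immediate-early genes, and without a minimum fold change 1 gene met the criteria. Total counts left 1 higher AP-1 and ATF gene, 2 higher upstream genes and 2 lower phosphatases. Lower EGR and NR4A genes numbered 2 with DESeq2, total counts or no filter on low counts. DESeq2 called 2 phosphatases higher and 1 lower, and 1 activity-regulated gene higher. Upper quartile scaling and robust dispersion each gave 1 lower phosphatase. Over all genes tested, DESeq2 called 1490 higher and 1769 lower, and total counts 778 and 2610. Upper quartile scaling called 1132 and 1695, robust dispersion 1257 and 1580, and the run with no filter 1259 and 1604. With 3 retinae a genotype, the standard error was 0.614 on the log2 scale for Junb, whose retinae varied most, and Batf2 rested on 0 to 11 counts a library.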
